A study of Mus musculus with 18 samples.

Results

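The G1 cyclins and their inhibitors were followed through RNA of isolated mouse brain endothelial cells, in which the cavernous malformation gene Pdcd10 (CCM3) had been deleted or left intact. The group holds 9 genes, chosen by name: the D cyclins Ccnd1, Ccnd2 and Ccnd3, the E cyclins Ccne1 and Ccne2, the CIP/KIP inhibitors Cdkn1a, Cdkn1b and Cdkn1c, and the INK4 inhibitor Cdkn2c. They were found among the 57010 gene rows of the read count table by their Ensembl identifiers, and all 9 were among the 17531 genes that passed the filter on low counts. The 18 libraries fall into 4 groups of mice killed at postnatal day 57. KO mice carried the tamoxifen-regulated, brain endothelial Cre driver Slco1c1-iCreERT2 with Pdcd10fl/fl and Aldh1l1-EGFP/Rpl10a. Flox mice were their littermates with Pdcd10fl/fl and Aldh1l1-EGFP/Rpl10a, so the floxed alleles and the astrocyte reporter were shared by all groups. The agent was 50 µg of 4-hydroxy-tamoxifen, given into the stomach at postnatal day 1. Cre-carrying animals left uninjected also served as controls, and no label tells them apart among the flox libraries. Hypoxia was 12% oxygen for 7 days and normoxia was 21% oxygen, with 5 hypoxia KO, 4 hypoxia flox, 5 normoxia KO and 4 normoxia flox libraries.

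D cyclins bind CDK4 and CDK6 early in G1 and start the phosphorylation of the retinoblastoma protein, which frees E2F factors to switch on the genes of DNA replication. E cyclins, themselves E2F targets, bind CDK2 and carry the cell into S phase. CIP/KIP inhibitors bind whole cyclin-CDK complexes, whereas INK4 inhibitors bind CDK4 and CDK6 alone. Endothelial cells of the adult brain are mostly quiescent, and Pdcd10 loss in them is known for vascular malformations.

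The libraries held 17.9 to 31.2 M counts each. Levels below are CPM (counts per M on TMM-scaled library sizes) unless RPKM, which also divides by gene length, is named. Changes are log2 fold changes ± SE from 1 edgeR quasi-likelihood model of all 18 libraries, and a gene was called at a Benjamini-Hochberg adjusted p under 0.05 over all 17531 genes. Counts and shares of genes given as higher or lower are of called genes. No label says how animals and libraries correspond, so p-values measure the spread between these libraries. The deleted gene Pdcd10 averaged 18.6 ± 1.90 CPM in normoxia KO (SD, n = 5) and 39.3 ± 6.14 CPM in normoxia flox (n = 4), and 21.3 ± 2.77 CPM in hypoxia KO (n = 5) and 48.0 ± 9.79 CPM in hypoxia flox (n = 4). The endothelial markers Pecam1 (1032 to 2007 CPM) and Cldn5 (1313 to 2407 CPM) were abundant in every library. Of 6 smooth muscle markers, 5 were called lower in KO in each oxygen condition, where 7.03% of all genes in normoxia and 11% in hypoxia were. They summed to 144 to 172 CPM in normoxia KO against 486 to 919 CPM in normoxia flox. In hypoxia they summed to 122 to 257 CPM in KO against 315 to 599 CPM in flox. Of 7 pericyte markers, 3 were called higher in KO in normoxia and 5 in hypoxia (median 1.52 and 1.87). Of 5 lymphocyte markers tested, 3 and 4 were called higher (median 1.82 and 1.92). Of 5 fibroblast markers, 1 and 2 were called higher (median 0.14 and 1.24). None of these markers was called lower, and 9.54% and 11.4% of all genes were called higher in the 2 conditions. No tested marker of these lists was at 0 in all libraries of a group. Lymphocyte markers summed to 8.94 to 24.8 CPM in normoxia KO against 3.75 to 8.01 CPM in normoxia flox, and to 16.4 to 35.2 CPM in hypoxia KO against 3.58 to 11.0 CPM in hypoxia flox. In bulk samples, fewer cells of a type and less RNA per cell cannot be told apart. Normoxia flox 4 and normoxia KO 4 carried neuron markers, with summed levels of 8 markers of 2041 and 1156 CPM, while Syt1 stayed at or under 8.68 CPM in the other libraries. Signal of further cell types was present in all libraries. The 6 oligodendrocyte markers summed to at least 509 CPM in each, with a top value of 4675 CPM (a normoxia KO library). The 4 erythroid markers summed to at least 846 CPM in each, with a top value of 5882 CPM (a hypoxia KO library). No marker of these 2 lists was called in any comparison. Astrocyte sums (6 markers) peaked at 2094 CPM among normoxia flox libraries and 1169 CPM among normoxia KO ones.

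Per gene length, Cdkn1a was the highest of the 9 genes in every group mean, at 147 ± 45.3 RPKM in hypoxia KO and 83.4 ± 44.5 RPKM in hypoxia flox, and at 139 ± 28.5 RPKM in normoxia KO and 79.8 ± 36.8 RPKM in normoxia flox (SD, n = 5 for KO and n = 4 for flox). Ccnd1 followed, with group means between 18.2 and 89.6 RPKM, although Cdkn1b (22.7 RPKM) exceeded it in normoxia flox. The E cyclins were lowest, with group means of 0.48 to 0.78 RPKM for Ccne1 and of 1.15 RPKM upwards, none above 2 RPKM, for Ccne2. The plot of levels by library shows all 9 genes.

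**Figure D1:**
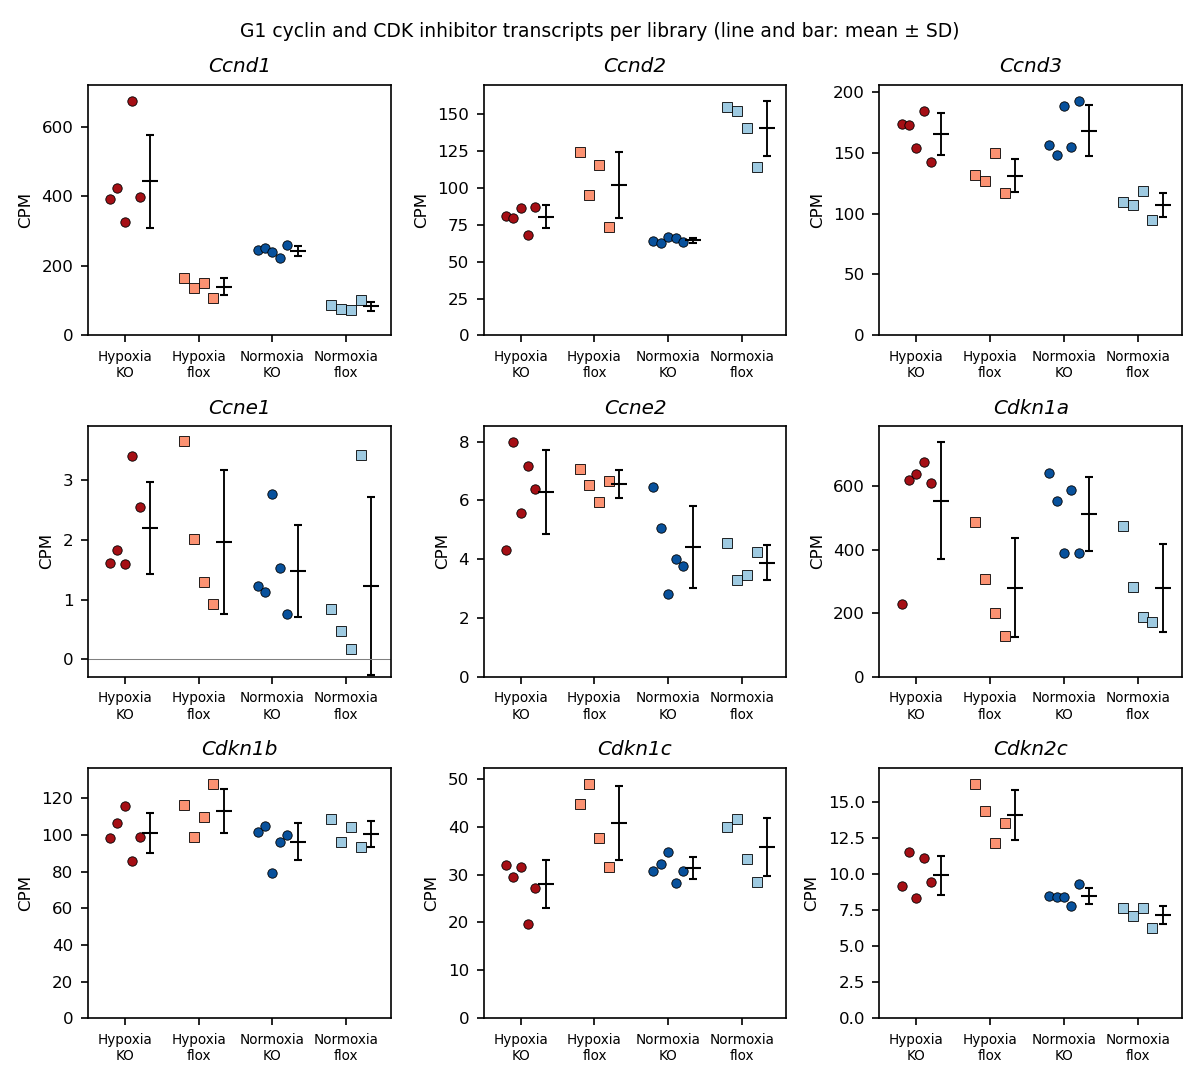
CPM of each of the 9 genes (1 panel a gene, y axis) in each library, by group from left to right: hypoxia KO (n = 5), hypoxia flox (n = 4), normoxia KO (n = 5) and normoxia flox (n = 4); points are libraries, and the line and bar beside them are the group mean ± SD. Ccnd1 separates all 4 groups, Ccnd2 is lowest in normoxia KO, and Cdkn1a spreads widely within groups.

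Ccnd1 was higher in KO than in flox cells in both oxygen conditions, and higher in hypoxia than in normoxia in both genotypes. It encodes cyclin D1, the D cyclin most tied to growth factor signals. In normoxia KO its levels were 246, 251, 241, 222 and 259 CPM in libraries 1, 2, 4, 5 and 6, against 87.1, 74.8, 72.2 and 101 CPM in normoxia flox libraries 1 to 4. In hypoxia KO libraries 1 to 5 they were 394, 424, 327, 675 and 397 CPM, against 165, 136, 152 and 107 CPM in hypoxia flox libraries 2 to 5. No 2 groups overlapped: the order was normoxia flox, hypoxia flox, normoxia KO and hypoxia KO, and the closest neighbours were the 2 flox groups. The KO minus flox difference was 1.54 ± 0.18 in normoxia (2.90-fold, adjusted p = 2.01e-05) and 1.67 ± 0.18 in hypoxia (3.17-fold, adjusted p = 1.32e-05). The hypoxia minus normoxia difference was 0.86 ± 0.17 in KO (1.82-fold, adjusted p = 0.0164) and 0.74 ± 0.19 in flox (1.67-fold, adjusted p = 0.0412). The interaction of genotype and oxygen was 0.13 ± 0.25 and did not pass (adjusted p = 0.993). With the first principal component of the other cell types' markers as a covariate, KO minus flox was 1.56 ± 0.18 in normoxia and 1.65 ± 0.18 in hypoxia. That component pools all these markers and cannot stand for each cell type. The part of other cell types in the Ccnd1 values was not tested. The flox response to hypoxia passed in 15 of 30 alternatives, with adjusted p between 0.00376 and 0.157; it was lost without normoxia flox 1, 2 or 3, normoxia KO 1, 2, 5 or 6, hypoxia flox 2, 3 or 4, or hypoxia KO 2 or 5. The KO response was lost without hypoxia KO 2 (0.88, adjusted p = 0.0511).

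Ccnd2, which encodes cyclin D2, moved the opposite way to Ccnd1 in normoxia. Its levels were 64.2, 62.5, 66.6, 66.1 and 63.4 CPM in normoxia KO libraries 1, 2, 4, 5 and 6, against 155, 152, 141 and 114 CPM in normoxia flox libraries 1 to 4. They were 81.3, 79.7, 86.5, 68.4 and 87.2 CPM in hypoxia KO libraries 1 to 5, against 124, 95.3, 116 and 73.5 CPM in hypoxia flox libraries 2 to 5. The 5 normoxia KO libraries lay close together and below every library of the other groups, whereas hypoxia flox 5 overlapped the hypoxia KO libraries. Ccnd2 fell by 1.12 ± 0.13 with Pdcd10 loss in normoxia, to 0.459 of the flox level (adjusted p = 1.27e-05). In hypoxia the difference was -0.34 ± 0.13 and missed the threshold (adjusted p = 0.0628), and it passed in 6 of 30 alternatives (adjusted p from 0.00906 to 0.213). The interaction, 0.78 ± 0.18, also missed it (adjusted p = 0.0904; 3 of 29 alternatives passed, range 0.00618 to 0.514), so the 2 oxygen conditions were not shown to differ. Hypoxia minus normoxia was 0.32 ± 0.12 in KO, where the groups did not overlap (adjusted p = 0.234), and -0.46 ± 0.13 in flox (adjusted p = 0.0877).

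Ccnd3, which encodes cyclin D3, was higher in KO cells in both oxygen conditions. It was at 156, 148, 188, 155 and 193 CPM in normoxia KO libraries 1, 2, 4, 5 and 6, against 109, 107, 118 and 94.5 CPM in normoxia flox libraries 1 to 4. It was at 174, 173, 154, 185 and 142 CPM in hypoxia KO libraries 1 to 5, against 131, 127, 150 and 117 CPM in hypoxia flox libraries 2 to 5. The normoxia groups did not overlap and the hypoxia groups did. KO minus flox was 0.65 ± 0.10 in normoxia (adjusted p = 3.68e-04) and 0.33 ± 0.10 in hypoxia (adjusted p = 0.0296). The hypoxia call passed in 23 of 30 alternatives (0.18 to 0.42) and was lost without hypoxia flox 2, 3 or 5 or hypoxia KO 2 or 4 (adjusted p of 0.0504, 0.0727, 0.108, 0.0628 and 0.0770). The oxygen differences, -0.02 ± 0.10 in KO and 0.29 ± 0.11 in flox, did not pass.

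Together the D cyclins summed to 116 ± 24.6 RPKM in hypoxia KO and 59.0 ± 8.28 RPKM in hypoxia flox, and to 75.5 ± 6.31 RPKM in normoxia KO and 46.1 ± 0.76 RPKM in normoxia flox (SD, n = 5 for KO and n = 4 for flox). Ccnd1 made up 76.7 ± 4.20% of that sum in hypoxia KO and 53.4 ± 1.67% in hypoxia flox, and 66.5 ± 2.02% in normoxia KO and 39.6 ± 6.15% in normoxia flox. Ccnd2 made up 7.41 ± 1.99% in hypoxia KO and 19.4 ± 1.36% in hypoxia flox, and 8.86 ± 0.63% in normoxia KO and 33.2 ± 4.03% in normoxia flox. The ratio of the 2 genes separated the genotypes in every library: Ccnd1 RPKM was 6.70 to 8.19 times Ccnd2 RPKM in normoxia KO against 0.98 to 1.77 times in normoxia flox, and 7.59 to 19.8 times in hypoxia KO against 2.62 to 2.91 times in hypoxia flox. These ratios are a description and carry no test.

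**Figure D2:**
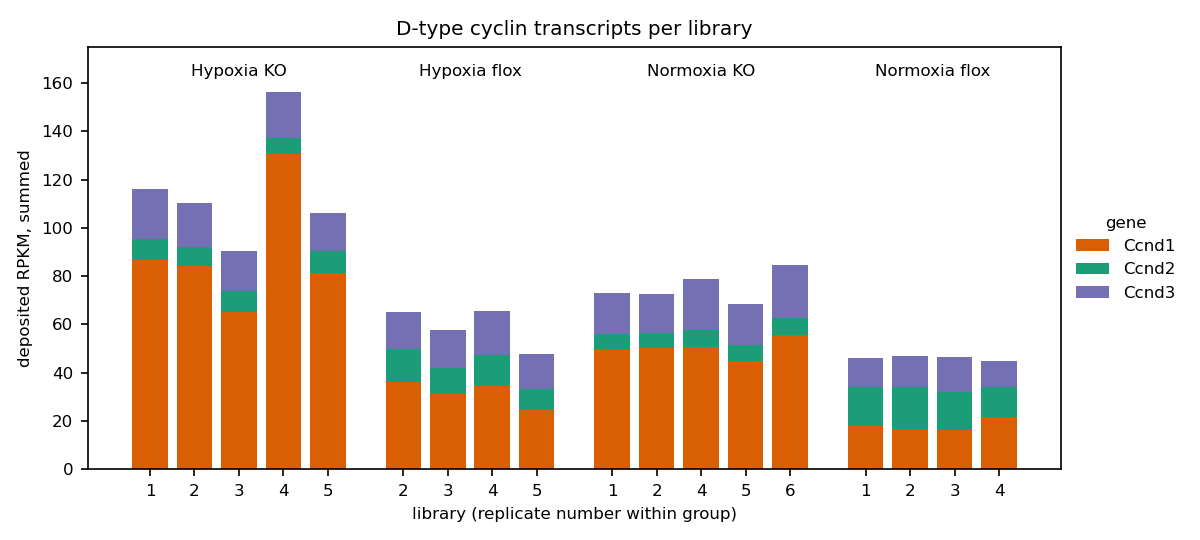
Deposited RPKM of Ccnd1, Ccnd2 and Ccnd3 stacked in 1 bar a library (y axis, summed RPKM; x axis, replicate number), by group from left to right: hypoxia KO, hypoxia flox, normoxia KO and normoxia flox. The Ccnd1 segment is the largest in both KO groups, 76.7% of the bar on average in hypoxia KO and 66.5% in normoxia KO, against 53.4% in hypoxia flox and 39.6% in normoxia flox.

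The E cyclins, which activate CDK2, were called in no comparison by the edgeR test of all 18 libraries. Ccne1 stood at 0.76 to 2.76 CPM in normoxia KO against 0.17 to 3.42 CPM in normoxia flox, and at 1.59 to 3.39 CPM in hypoxia KO against 0.93 to 3.65 CPM in hypoxia flox, which rests on 4 to 87 reads per library. Its highest normoxia values, in flox 4 and KO 4, were in the libraries with neuron markers. Without both libraries, hypoxia minus normoxia in flox was 2.04 ± 0.55 (adjusted p = 0.0514), against 0.66 ± 0.64 with them (adjusted p = 0.685). With the first principal component of other cell types as a covariate it was 1.83 ± 0.44 (adjusted p = 0.0275; range over 30 alternatives 0.0275 to 0.942). Ccne2 stood at 2.80 to 6.47 CPM in normoxia KO against 3.28 to 4.54 CPM in normoxia flox, and at 4.31 to 7.97 CPM in hypoxia KO against 5.94 to 7.08 CPM in hypoxia flox. The 2 flox groups did not overlap, yet hypoxia minus normoxia, 0.76 ± 0.23 in flox (adjusted p = 0.0979) and 0.51 ± 0.20 in KO (adjusted p = 0.256), did not pass. The flox difference of Ccne2 passed in 3 of 30 alternatives (range 0.0119 to 0.307): DESeq2 (adjusted p = 0.0397), limma-trend on RPKM (0.0482) and the immediate early covariate (0.0119). Ccne2 shares 609 exon bases with Ints8 on the opposite strand in the GENCODE annotation, and Ints8 had 12902 reads to the 2065 of Ccne2. The strand setting of the counting is not stated, so the Ccne2 values are uncertain. Other members also overlap a gene on the opposite strand. Ccnd1 shares 1100 exon bases with LTO1 (8215 reads to 93856). Ccnd3 shares 361 with Bysl (9043 to 58198) and Cdkn1a 273 with AC167363.2 (1335 to 166346). Ccnd2 and Cdkn1c overlap genes of at most 64 reads.

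Cdkn1a, the p53-responsive inhibitor of cyclin-CDK complexes, was the most abundant of the inhibitors per length and varied widely within groups. Its 2 annotated start regions are shown for the sequence classes they hold, each as the 250 bases upstream of a start in the RefSeq annotation of GRCm38.p6. In the first (chr17:29090729-29090978, plus strand), capitals mark a pair of CATG cores 6 bases apart, the spacing of a p53-type element, which was looked for after the sequence was seen.
Cdkn1a start 1: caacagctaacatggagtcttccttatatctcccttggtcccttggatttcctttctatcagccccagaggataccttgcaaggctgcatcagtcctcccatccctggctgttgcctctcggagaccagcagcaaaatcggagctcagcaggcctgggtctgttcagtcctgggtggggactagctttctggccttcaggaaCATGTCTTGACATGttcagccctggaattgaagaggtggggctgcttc
In the second (chr17:29093519-29093768, plus strand), capitals mark GC boxes, GGGCGG, the type of element bound by Sp-family factors.
Cdkn1a start 2: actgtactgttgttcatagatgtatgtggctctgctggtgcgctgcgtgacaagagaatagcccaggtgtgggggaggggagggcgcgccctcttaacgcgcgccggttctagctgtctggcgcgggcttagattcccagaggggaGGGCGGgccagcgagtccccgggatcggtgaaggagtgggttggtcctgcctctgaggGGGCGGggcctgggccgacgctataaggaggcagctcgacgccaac
A CATG followed after any 6 bases by CATG, a pattern that reads the same on both strands, occurs in 0.712% of 32851 start regions of 300 bases (250 before to 50 after a start) and in 1 of the 8 regions of the 5 members with an entry. GGGCGG, searched on both strands, occurs in 35.7% of all regions and in 6 of these 8. The E2F-type motifs TTTCCCGC, TTTCGCGC, TTTGCCGC and TTTGGCGC occur in 2.26% of all regions and in 0 of the 8. A match is a description of these letters, and no binding was measured.

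Cdkn1a was at 640, 553, 389, 588 and 388 CPM in normoxia KO libraries 1, 2, 4, 5 and 6, against 476, 282, 187 and 174 CPM in normoxia flox libraries 1 to 4. It was at 229, 618, 637, 674 and 611 CPM in hypoxia KO libraries 1 to 5, against 488, 306, 200 and 128 CPM in hypoxia flox libraries 2 to 5. Each genotype pair overlapped, through normoxia flox 1 in normoxia, and through hypoxia KO 1 in hypoxia, which lay below hypoxia flox 2 and 3. KO minus flox was 0.87 ± 0.40 in normoxia (adjusted p = 0.156) and 0.98 ± 0.40 in hypoxia (adjusted p = 0.0899), and neither passed. DESeq2 on all libraries called the hypoxia difference (adjusted p = 0.0419), as did edgeR when hypoxia flox 2 (0.0249) or hypoxia KO 1 (0.0286) was left out. Cdkn1a moved with 16 immediate early genes such as Fos, whose RNA rises within minutes of cell stress. The score of these genes, their mean log2 CPM, ran from 7.46 to 10.3 in normoxia KO and from 6.53 to 10.2 in normoxia flox, and from 7.21 to 10.3 in hypoxia KO and from 6.48 to 9.77 in hypoxia flox. The 9 libraries with a score of 9.77 or more held 476 to 674 CPM of Cdkn1a, and the 9 with a score of 8.61 or less held 128 to 389 CPM. The score was not balanced between genotypes. Normoxia flox 1 and hypoxia flox 2 were the only flox libraries on the high side, and normoxia KO 4 and 6 and hypoxia KO 1 the only KO libraries on the low side. None of the 16 genes was called for KO minus flox, where 16.6% of all genes in normoxia and 22.3% in hypoxia were. Their median difference was 0.88 in normoxia and 1.31 in hypoxia. Score and genotype therefore cannot be fully told apart. With the score as a covariate, KO minus flox of Cdkn1a was 0.63 ± 0.17 in normoxia (adjusted p = 0.0153, range over 32 alternatives 0.0153 to 0.477) and 0.39 ± 0.18 in hypoxia (adjusted p = 0.148, range over 30 alternatives 0.0249 to 0.248). What raised the immediate early genes in some libraries was not tested.

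**Figure D3:**
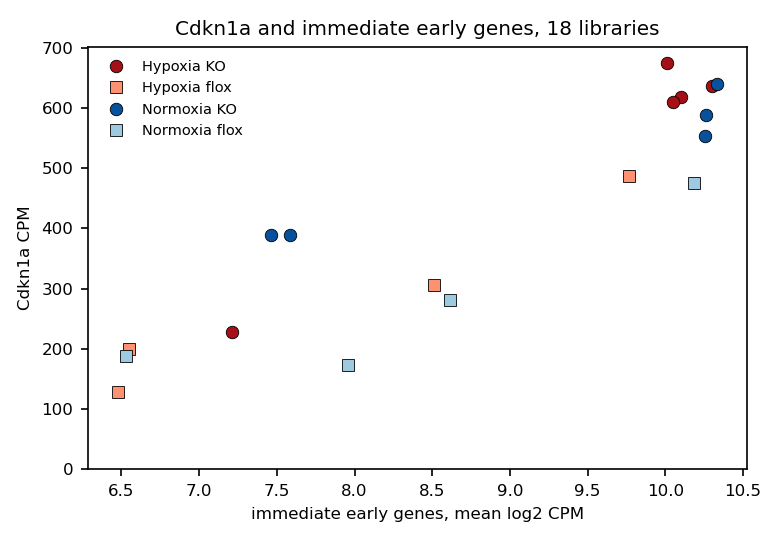
Cdkn1a (y axis, CPM) against the immediate early gene score (x axis, mean log2 CPM of 16 genes) in the 18 libraries, coloured by group. The 9 libraries at scores of 9.77 and above sit at 476 CPM or more, and the 9 at 8.61 and below sit at 389 CPM or less.

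Cdkn1b, an inhibitor of cyclin E-CDK2 that is abundant in resting cells, lay between 79.3 and 128 CPM in all 18 libraries. All 4 groups overlapped, and its differences were -0.06 ± 0.10 and -0.16 ± 0.10 for KO minus flox in normoxia and in hypoxia (adjusted p = 0.719 and 0.259). On RPKM, limma-trend called the hypoxia difference (-0.32 ± 0.10, adjusted p = 0.0329, range over 30 alternatives 0.0329 to 0.577). Cdkn1c, an imprinted inhibitor of the same family, was at 31.9, 29.4, 31.7, 19.8 and 27.1 CPM in hypoxia KO libraries 1 to 5, against 44.8, 48.9, 37.7 and 31.5 CPM in hypoxia flox libraries 2 to 5. In normoxia it was at 28.3 to 34.7 CPM in KO against 28.5 to 41.6 CPM in flox. Cdkn1c fell by 0.54 ± 0.15 with Pdcd10 loss in hypoxia (adjusted p = 0.0164), where hypoxia flox 5 reached into the KO range. In normoxia the difference was -0.19 ± 0.15 (adjusted p = 0.446), and the interaction of -0.35 ± 0.21 (adjusted p = 0.993) did not show that the conditions differ. The hypoxia call was lost without hypoxia flox 3 (-0.45, adjusted p = 0.0663). Within the CIP/KIP RPKM, Cdkn1a made up 79.2 ± 3.71% in normoxia KO and 64.3 ± 8.30% in normoxia flox, and 79.4 ± 9.22% in hypoxia KO and 60.4 ± 12.4% in hypoxia flox.

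Cdkn2c, an INK4 inhibitor of CDK4 and CDK6 and itself an E2F-regulated gene, was higher after hypoxia in flox cells and, among the hypoxia groups, lower in KO. It has 2 start regions in the table, and a GC box was found in the first and none in the second. The 250 bases before the first start, chr4:109666757-109667006 on the minus strand, are shown for their GC boxes, in capitals.
Cdkn2c start 1: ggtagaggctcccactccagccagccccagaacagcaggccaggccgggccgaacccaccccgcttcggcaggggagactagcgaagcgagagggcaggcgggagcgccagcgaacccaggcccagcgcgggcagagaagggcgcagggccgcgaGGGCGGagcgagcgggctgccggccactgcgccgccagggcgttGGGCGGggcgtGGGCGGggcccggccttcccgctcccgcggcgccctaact
Cdkn2c was at 9.16, 11.5, 8.34, 11.1 and 9.49 CPM in hypoxia KO libraries 1 to 5, against 16.3, 14.4, 12.1 and 13.5 CPM in hypoxia flox libraries 2 to 5. It was at 8.51, 8.39, 8.41, 7.81 and 9.32 CPM in normoxia KO libraries 1, 2, 4, 5 and 6, against 7.62, 7.12, 7.64 and 6.28 CPM in normoxia flox libraries 1 to 4. The 4 hypoxia flox libraries stood above all others, and the 4 normoxia flox libraries below all others. Hypoxia minus normoxia in flox was 0.98 ± 0.12 (1.97-fold, adjusted p = 8.16e-05), and in KO 0.23 ± 0.11 (adjusted p = 0.348). KO minus flox was -0.50 ± 0.11 in hypoxia (adjusted p = 0.00418) and 0.25 ± 0.11 in normoxia, where the groups did not overlap (adjusted p = 0.162). The interaction was -0.75 ± 0.16 and passed narrowly (adjusted p = 0.0499); it passed in 6 of 29 alternatives, with values from -0.81 to -0.65 and adjusted p from 0.0094 to 0.312, and it was lost on leaving out any library other than hypoxia KO 2 or hypoxia KO 4.

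The 10 markers of dividing cells, such as Mki67 and Top2a, moved in a similar way in the flox cells. Their score, a mean log2 CPM, was 2.63 to 3.80 in hypoxia KO and 3.47 to 3.96 in hypoxia flox, and 2.02 to 3.04 in normoxia KO and -0.14 to 1.09 in normoxia flox. All 10 were called higher in hypoxia than in normoxia in flox (median 3.49), where 2.34% of all genes were called higher. In KO 1 of 10 was called higher with hypoxia, where 0.713% of all genes were, though their median difference was 0.81. In normoxia 9 of 10 were called higher in KO than in flox (median 2.43), where 9.54% of all genes were. In hypoxia none was called between the genotypes, where 22.3% of all genes were, and their median difference was -0.32. The interaction of 7 of the 10 was called, where that of 0.439% of all genes was. All 7 were negative, as that of Cdkn2c was, but so were the interactions of all 77 genes called. Ccnd1, like the median of these markers, was higher with hypoxia in both genotypes, and higher in KO than in flox in normoxia. It differed in where hypoxia flox stood. The normoxia KO libraries, with lower scores than the hypoxia flox ones, held 222 to 259 CPM of Ccnd1, against 107 to 165 CPM in hypoxia flox. The part of the number of dividing cells in the Ccnd1 and Cdkn2c values was not tested.

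**Figure D4:**
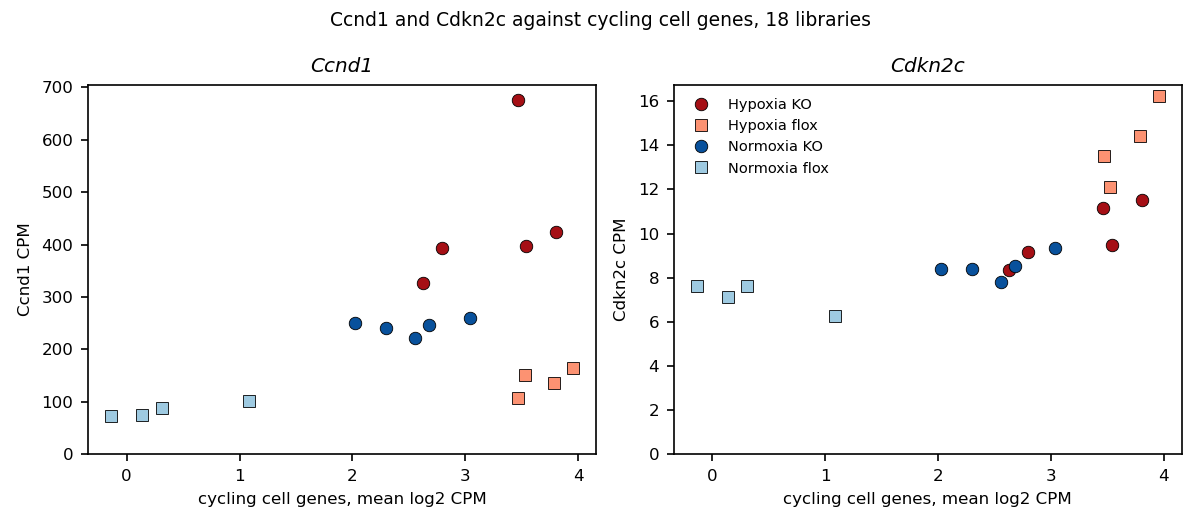
Ccnd1 (left, y axis, CPM) and Cdkn2c (right, y axis, CPM) against the score of 10 dividing-cell markers (x axis, mean log2 CPM) in the 18 libraries, 1 point each, coloured by group. For Cdkn2c the hypoxia flox libraries lie at the top right (12.1 to 16.3 CPM) and the normoxia flox libraries at the bottom left (6.28 to 7.64 CPM). For Ccnd1 the hypoxia flox libraries (107 to 165 CPM) lie above the normoxia flox (72.2 to 101 CPM) and below the normoxia KO libraries (222 to 259 CPM).

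For KO minus flox in normoxia, 3 of the 9 genes were called, 2 higher and 1 lower, where 16.6% of all genes tested were called (9.54% higher, 7.03% lower), and 4 of 9 had groups that did not overlap, against 14.7% of all genes. With only the normoxia pairs 1, 2 and 4 kept beside the hypoxia libraries, 1751 genes were called with the pair as a block and 1167 without it, and the same 3 members in both. In hypoxia the counts were 4 of 9, 2 higher and 2 lower, against 22.3% of all genes (11.4% higher, 11% lower), and 2 of 9 did not overlap, against 22.3%. On the deposited RPKM, scaled by column totals, limma-trend called 1282 genes higher and 3086 lower in hypoxia, against 1994 and 1922 in the edgeR fit, and 1 member higher and 4 lower; the median of all genes was -0.14 on that scale. For hypoxia minus normoxia, 1 of 9 was called in KO, a higher one, against 1.48% of all genes (0.713% higher, 0.77% lower), and 2 of 9 in flox, both higher, against 2.81% (2.34% higher, 0.462% lower). On RPKM the flox split of all genes was 466 higher and 32 lower, against 411 and 81. The groups did not overlap for 2 of 9 genes in KO and 3 of 9 in flox, against 3.83% and 8.5% of all genes. The interaction was called for 1 of 9 against 0.439%, and the 77 genes behind that share were all lower. The 2 genotype comparisons share no library with each other, but each shares its libraries with an oxygen comparison.

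**Figure D5:**
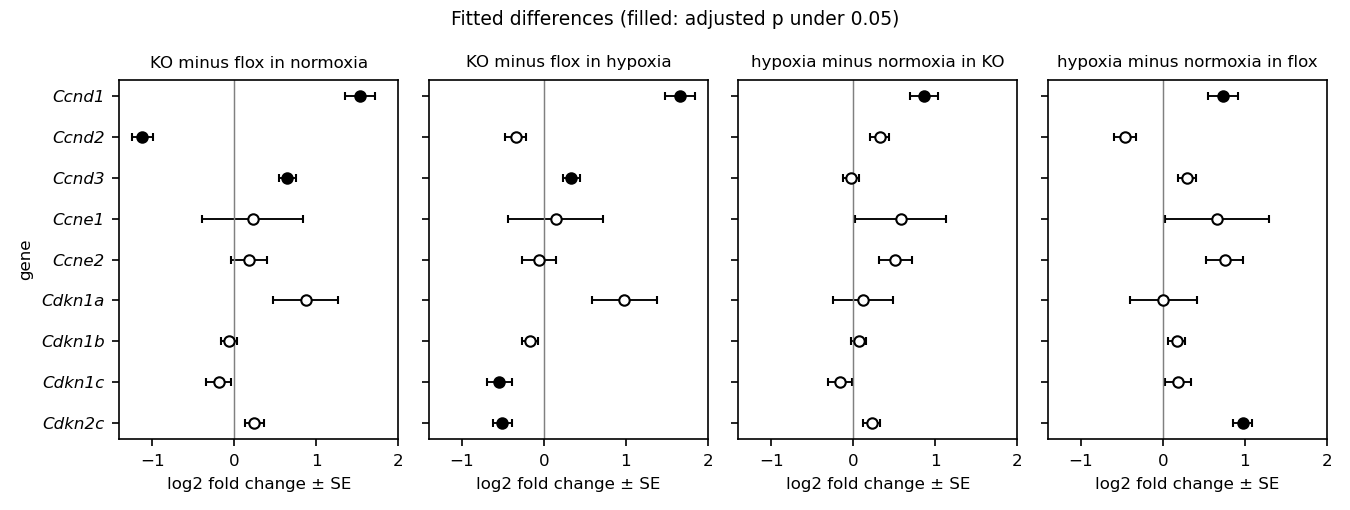
Log2 fold change (x axis) with SE for each of the 9 genes in the 4 comparisons; filled points passed an adjusted p of 0.05. Ccnd1 lies right of 0 in all 4 (1.54, 1.67, 0.86 and 0.74), and Ccnd2 and Ccnd3 lie on opposite sides in the genotype comparisons.

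The partners of these genes were given by a list of 38, of which 35 were tested. The kinases Cdk4 and Cdk6, the retinoblastoma gene Rb1 and Cdk2 were called in no comparison; Cdk4 was at 55.0 CPM in normoxia KO and 48.2 CPM in normoxia flox, and at 57.1 CPM in hypoxia KO and 60.4 CPM in hypoxia flox. In normoxia, 6 partners were higher and 1 lower in KO (median 0.08, against -0.02 for all genes), 7 of 35 where 16.6% of all genes were called. The S phase cyclin Ccna2 was higher by 1.95 ± 0.32, the kinase subunit Cks2 by 1.63 ± 0.38 and the transcription factor E2f2 by 1.52 ± 0.31, while the INK4 inhibitor Cdkn2b fell by 0.66 ± 0.17. In hypoxia, 3 were higher and 1 lower in KO (median -0.03, against -0.00 for all genes), 4 of 35 where 22.3% of all genes were called. Fbxw7, whose ubiquitin ligase removes cyclin E, was higher by 0.79 ± 0.14, Fbxo4 by 0.40 ± 0.12 and E2f3 by 0.28 ± 0.09, and Skp2, which removes Cdkn1b protein, fell by 0.59 ± 0.14. With hypoxia in flox 7 partners were higher and none lower (median 0.18, against -0.03), 7 of 35 where 2.81% of all genes were called. Among them were E2f8 by 3.93 ± 0.63, Ccna2 by 3.44 ± 0.34 and E2f2 by 2.71 ± 0.32. With hypoxia in KO, E2f3 alone was called, by 0.37 ± 0.09 (median 0.16, against -0.03), where 1.48% of all genes were called. The interaction was called for Ccna2 alone (-2.66 ± 0.42), where 0.439% of all genes were.

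Of 29 E2F target genes tested, 8 were higher and 0 lower in KO in normoxia (median 0.28, where 9.54% of all genes were higher), among them Cdc6 by 1.68 ± 0.34 and Cdt1 by 1.15 ± 0.26. In hypoxia 0 were higher and 1, the DNA methyltransferase Dnmt1, was lower (-0.35 ± 0.07). The median was -0.11, and 11.4% of all genes were higher and 11% lower. With hypoxia 18 were higher in flox (median 0.73, where 2.34% of all genes were higher), such as Rrm2 by 2.75 ± 0.44 and Brca1 by 2.09 ± 0.32. In KO 2 were higher (median 0.36, where 0.713% of all genes were higher), Mybl2 by 0.83 ± 0.19 and Chaf1a by 0.66 ± 0.16. None passed the edgeR test of the interaction (median -0.38), which 0.439% of all genes passed. In that test 11 of 29 had an unadjusted p under 0.05. Of 25 p53 target genes, which like Cdkn1a respond to that factor, 6 were higher and 3 lower in KO in normoxia (median 0.29) and 5 higher and 3 lower in hypoxia (median 0.18), where 16.6% and 22.3% of all genes were called and their medians were -0.02 and -0.00. The p53 target Btg2 is also on the immediate early list. Eda2r was higher by 2.49 ± 0.28 and 1.85 ± 0.26 in the 2 conditions, Phlda3 by 1.81 ± 0.23 and 1.79 ± 0.23, and Pmaip1 by 1.58 ± 0.25 and 1.63 ± 0.25, whereas the death receptor Fas fell by 1.28 ± 0.21 in hypoxia. With hypoxia, 0 p53 targets were called by edgeR in KO (2 at an unadjusted p under 0.05), where 1.48% of all genes were called. In flox 1 was called, Gtse1 by 2.02 ± 0.24, where 2.81% of all genes were. Gtse1 was also higher in KO in normoxia (1.42 ± 0.24) and passed the interaction (-1.69 ± 0.31). These 3 changes went the same way as those of most dividing-cell markers.

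Genes whose centred log2 CPM differed least from a member over the 18 libraries, by root mean square difference, were as follows. For Ccnd1 they were Hcls1 (0.20) and Myadm (0.26), and Hcls1 averaged 36.8 ± 6.90 CPM in hypoxia KO and 11.6 ± 2.56 CPM in hypoxia flox, and 23.5 ± 2.03 CPM in normoxia KO and 6.07 ± 1.56 CPM in normoxia flox. For Ccnd2 they were Arl15 (0.21) and Map3k5 (0.22), and for Ccnd3 Mxra7 (0.11) and Capns1 (0.11). For Cdkn1c they were Trmt1l (0.15) and Prmt9 (0.18). For Cdkn2c they were the spindle checkpoint gene Mad2l1 (0.14) and the condensin gene Ncapd2 (0.17); Ncapd2 averaged 29.1 ± 3.69 CPM in hypoxia KO and 45.2 ± 3.11 CPM in hypoxia flox, and 23.8 ± 3.83 CPM in normoxia KO and 22.6 ± 2.32 CPM in normoxia flox.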

How the data were processed

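RNA from isolated mouse brain endothelial cells of 4 groups, 18 libraries in all, was prepared with a stranded mRNA kit, per the labels' protocols. The authors named HISAT2, edgeR and the build GRCm39, per the submitters' processing notes, with versions and the strand setting not given in the sources used here. The authors deposited read counts, as whole numbers, for 57010 Ensembl identifiers. The deposited RPKM, counts scaled by the authors to library total and gene length, carry 1 decimal. Gene symbols came from GENCODE M21 (GRCm38) and matched 91.3% of identifiers, and promoter sequences came from RefSeq (GRCm38.p6), so no coordinates of the counted genes are given. Overlapping exons were read from the same GENCODE annotation.

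Genes kept by filterByExpr (17531) were scaled by TMM and fitted in R 4.3.3 with edgeR 4.0.16 (glmQLFit, robust, legacy=FALSE) in 1 model of the 4 groups, and a Benjamini-Hochberg adjusted p under 0.05, over all genes of a comparison, was the threshold. SE is the size of the log2 fold change over the square root of F. A prior count of 2 was used for log2 CPM. On counts simulated for KO minus flox in normoxia (17263 genes tested), 38 of 100 genes changed by a log2 fold of 1 and 80 of 100 changed by 2 were called in the right direction, with 3 false calls. No other genes were changed there, whereas 2905 genes were called in the data. The simulated shares therefore need not hold for the reported fit. Alternatives were RLE scaling, no filter, a stricter filter (1 CPM in 4 libraries), DESeq2 1.42.0, the legacy fit, only the groups compared, limma-trend (limma 3.58.1) on log2(RPKM + 0.1), a replicate block, covariates for immediate early genes, sex and other cell types, leaving out both neuron-marker libraries, and leaving out each library; the fits of the normoxia pairs alone, with and without the block, were chosen after seeing the data. The members, the lists, the naming rule and the alternatives were chosen with earlier results of these data known. The rule names all 9 members, Pdcd10, up to 4 called genes per list and comparison with the smallest adjusted p (up to 3 for the interaction), and the 2 genes most like each called member (average log2 CPM at least 1); the partners Cdk2, Cdk4, Cdk6 and Rb1 are named outside it, after their values were seen.

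Equal replicate numbers were checked by correlating deviations from group means across genes, which are not independent replicates. In normoxia r was 0.579, 0.294 and 0.848 for the pairs numbered 1, 2 and 4. The best match among the flox libraries had the equal number for KO 1 and KO 4, but not for KO 2. The reported fit used no pairing, and replicate numbers entered only as blocks in alternatives. The other comparisons gave r from -0.525 to 0.402. The highest was for replicate 5 of the 2 KO groups, where the equal number was also the best match. No 2 libraries agreed within sampling noise.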

Additional observations from a re-analysis of the deposited data

Results flagged for a closer look

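Among 36 sets of 4 or 5 libraries (9 genes in 4 groups), 2 held a library far from the others, and chance flags about 1 in 20 such sets. Hypoxia KO 4 had 675 CPM of Ccnd1, against 327 to 424 CPM in the other hypoxia KO libraries; without it, KO minus flox in hypoxia was 1.46 ± 0.13 and hypoxia minus normoxia in KO was 0.66 ± 0.12 (adjusted p = 0.0203). Hypoxia KO 1 had 229 CPM of Cdkn1a, against 611 to 674 CPM in the others, and the lowest immediate early score of its group (7.21). Without it, KO minus flox of Cdkn1a in hypoxia was called (adjusted p = 0.0286). The third result was the interaction of genotype and oxygen for Cdkn2c (-0.75 ± 0.16, adjusted p = 0.0499), a tested difference between the genotype effects in hypoxia and in normoxia.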

How the results depend on the processing

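No value that passed the threshold, in the reported fit or under an alternative, changed its sign; of the 34 uncalled member values, 10 took the other sign somewhere among the alternatives, uncalled there too. Of 335 values of called members under alternatives, 287 stayed called and 48 did not; of 1024 uncalled ones, 22 became called. The cause was not tested for any of the changes below. The member count for the interaction was 0 under RLE, no filter, the legacy fit, the replicate block, the sex signal and the cell type component, 2 under DESeq2, and 0 to 1 leaving out each library; its gene count was 145 under DESeq2, 3 under the replicate block and 28 to 98 leaving out each library. For hypoxia in flox, the member count was 1 with no filter, with only the 2 groups and with the sex signal, 4 under DESeq2 and 1 to 3 leaving out each library; genes were 833 under DESeq2, 935 with the immediate early score and 332 to 619 leaving out each. For hypoxia in KO, the member count was 0 with only the 2 groups, and 0 to 1 leaving out each library (0 without hypoxia KO 2); genes were 617 under DESeq2, 107 with only the 2 groups, 43 under the replicate block, 564 with the immediate early score and 53 to 523 leaving out each. For KO minus flox, normoxia genes were 1791 under the replicate block, 1751 with the block over the normoxia pairs alone, 1167 for the same libraries without it and 2085 to 3645 leaving out each library, with 3 members throughout leaving out each; for the hypoxia comparison, leaving out each of the 18 libraries gave 2 to 5 members and 2664 to 4499 genes, while DESeq2 called 6 members and the fit without both neuron-marker libraries 5542 genes. The replicate block changed no other call of a member. Depth limits Ccne1, which had 4 to 87 reads per library.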
